A study of Mus musculus with 9 samples.

Results

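PPARγ binding around the adipogenic C/EBP genes Cebpa, Cebpb and Cebpd was described over the day in murine interscapular brown adipose tissue (iBAT). The members were the ChIP-sequencing peaks whose midpoint lay in a window around each gene on mm10. The window reached from 29.3 kb before to 50.7 kb past the start of Cebpa on chromosome 7 (35119293), from 28.9 kb before to 61.1 kb past that of Cebpb on chromosome 2 (167688915), and from 27.3 kb before to 32.7 kb past that of Cebpd on chromosome 16 (15887286), all on the + strand. These windows held 27 of the 66066 peaks, with 9 at Cebpa, 15 at Cebpb and 3 at Cebpd. Membership was set by position alone, with no measured value in the rule, although earlier results of these data were known.

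The tissue came from male C57BL/6J mice of 10 weeks, of 1 strain with no treatment and fed chow. They were kept under 12 h of light and 12 h of darkness, at a room temperature that the paper describes as mild cold. Each of the 8 libraries held chromatin pooled from 8 mice (the animal section of the methods gives another number per time point) and was taken at Zeitgeber time (ZT) 0, 3, 6, 9, 12, 15, 18 or 21, where ZT0 is the onset of light. There was thus 1 library per time point, so how far pools taken at one time differ was not measured. Both tests below read a periodic pattern, of 21 or 24 h in JTK and 24 h in edgeR, out of 8 single libraries. The libraries held 29572225 to 34264812 reads in peaks. Whole tissue was used, so binding in brown adipocytes and in other cells cannot be told apart. Peaks were assigned within 100 kb to 5 of 6 brown adipocyte marker genes, among them Ucp1 and Cidea but not Prdm16. All 3 general adipocyte genes Adipoq, Fabp4 and Plin1 had peaks, and the white adipocyte genes Lep and Retn had 11 between them. Of the skeletal muscle genes Ckm, Myh4 and Acta1, only Acta1 had a peak. No peak was assigned to the macrophage genes Adgre1, Cd68 and Csf1r. The endothelial genes Pecam1, Cdh5 and Kdr had 24 peaks between them. The strongest of these had a mean normalized count of 1345, against 10544 at the brown adipocyte genes, 2187 at the white ones and 418 at Acta1.

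C/EBPα, C/EBPβ and C/EBPδ are basic leucine zipper transcription factors. In adipocyte differentiation C/EBPβ and C/EBPδ are induced early and activate the genes of C/EBPα and PPARγ, which then maintain each other's expression. C/EBPβ also takes part in the brown fat programme with the co-regulator PRDM16. PPARγ binds DNA as a heterodimer with RXR at the DR1 element, a pair of AGGTCA hexamers separated by a single base.

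The DR1 sequences in these peaks are shown first because they are what PPARγ is known to recognize. Both strands were searched for AGGTCA followed by any base and AGGTCA again, allowing up to 2 mismatches to the 12 fixed letters. Matches were found in 14 of the 27 peaks, 6 at Cebpa, 7 at Cebpb and 1 at Cebpd, against 23.6% of all peaks. Wide peaks hold more letters, so this share is better read by width. Of the 5 members of at least 5000 bp, 4 held a match, against 73.0% of all peaks that wide. Of the 8 members under 1000 bp, 3 held one, against 16.7%. The closest matches, with 0 or 1 mismatch, were in 5 members, while 4.99% of all peaks held such a match. By width, they were in 2 of the 5 members of at least 5000 bp (20.6% of all peaks that wide), 1 of the 5 from 2000 to 5000 bp (10.0%), 1 of the 9 from 1000 to 2000 bp (5.55%) and 1 of the 8 narrower ones (3.54%). They are given with 20 bases on either side, read 5′ to 3′ on the strand of the element from the GRCm38 (mm10) RefSeq genome, with the 13 bases of the element in capitals.

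Cebpb, element at chr2:167692070-167692082, + strand, 0 mismatches: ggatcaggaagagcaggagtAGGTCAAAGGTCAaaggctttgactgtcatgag
Cebpa, element at chr7:35161083-35161095, + strand, 0 mismatches: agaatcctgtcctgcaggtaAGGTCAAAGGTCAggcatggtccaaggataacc
Cebpa, element at chr7:35168141-35168153, + strand, 0 mismatches: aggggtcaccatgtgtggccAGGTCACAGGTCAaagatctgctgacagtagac
Cebpa, element at chr7:35147009-35147021, + strand, 1 mismatch: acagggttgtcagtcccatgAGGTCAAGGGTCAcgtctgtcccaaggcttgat
Cebpb, element at chr2:167703013-167703025, - strand, 1 mismatch: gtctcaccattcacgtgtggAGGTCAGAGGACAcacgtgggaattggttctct

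The Cebpb element with 0 mismatches lay 3161 bp downstream of the Cebpb start site, in the strongest peak of that window. The pair of Cebpa elements with 0 mismatches lay 41796 and 48854 bp downstream of the Cebpa start, in peaks of low count. A full match was therefore found both in one of the strongest members and in weak ones. The start sites of Cebpa, Cebpb and Cebpd were each covered by a peak. For that reason the 250 bases before the start are shown for Cebpa and Cebpb, from the RefSeq promoter table of GRCm38. It held no entry for Cebpd. TATAAA on the sense strand, the core of the TATA box, is in capitals.

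Cebpa, chr7:35119043-35119292, + strand: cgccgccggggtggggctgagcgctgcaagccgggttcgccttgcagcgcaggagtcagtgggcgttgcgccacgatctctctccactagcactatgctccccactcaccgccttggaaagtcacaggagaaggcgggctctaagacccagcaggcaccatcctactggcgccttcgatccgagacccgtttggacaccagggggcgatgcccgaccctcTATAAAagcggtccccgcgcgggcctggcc
Cebpb, chr2:167688665-167688914, + strand: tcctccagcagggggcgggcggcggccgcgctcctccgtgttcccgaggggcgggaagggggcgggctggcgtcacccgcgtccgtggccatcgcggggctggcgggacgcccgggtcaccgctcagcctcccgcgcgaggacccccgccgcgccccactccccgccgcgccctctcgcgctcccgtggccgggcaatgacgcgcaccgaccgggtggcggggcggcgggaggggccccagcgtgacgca

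The Cebpa stretch held TATAAA beginning 30 bases before the start, a match found in 7.59% of the 32851 promoter stretches of this length, and the Cebpb stretch held none. GC content was 66.4% and 81.6%. Neither stretch held an exact match to the C/EBP element TTGCNNAA or the cAMP response element TGACGTCA. Neither held the E-box CACGTG that clock and other basic helix-loop-helix factors bind, although a CACGTG lay 270 bp upstream of the Cebpa start. TTGCNNAA, CACGTG and TGACGTCA were found in 9.56%, 6.02% and 1.55% of promoter stretches. Over the whole peaks, TTGCNNAA was found in 16 members, CACGTG in 8 and TGACGTCA in 0, against 44.1%, 16.9% and 1.65% of all peaks. By width, TTGCNNAA was in 5 of the 5 members of at least 5000 bp (93.7% of all peaks that wide). It was in 4 of the 5 from 2000 to 5000 bp (74.6%), 6 of the 9 from 1000 to 2000 bp (52.2%) and 1 of the 8 narrower ones (34.3%). The E-box was held only by members of at least 2000 bp, 4 of the 5 members from 2000 to 5000 bp, where 38.2% of all peaks held it, and 4 of the 5 wider ones, where 62.8% did.

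Binding differed widely between the 3 genes. Counts were normalized to library totals with TMM factors and are given as normalized counts. The Cebpa window took 0.0757% of all reads in peaks, the Cebpb window 0.0941% and the Cebpd window 0.00426%. Per length, the strongest members were the pair of peaks at the Cebpb start and just downstream of it, with means of 1342 and 1388 normalized reads per kb, which ranked 222 and 169 among all peaks. The peak over the Cebpa start had 908 reads per kb, and the peak over the Cebpd start 348, against a median of 270 reads per kb over all peaks.

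**Figure D1:**
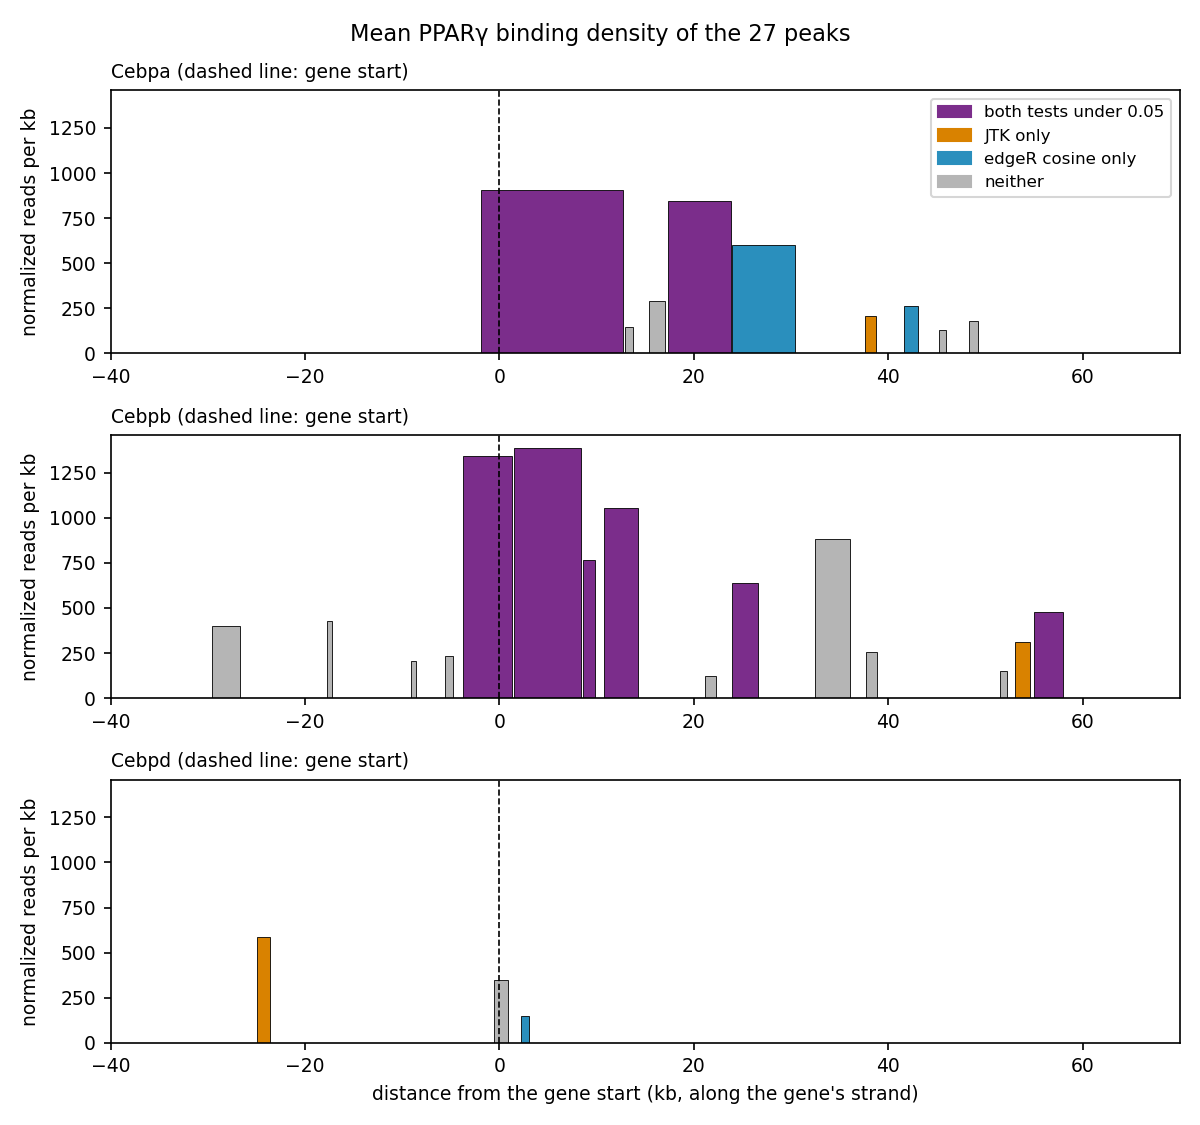
Mean normalized reads per kb (vertical axis) of the 27 peaks against distance from the gene start in kb (horizontal axis), for Cebpa, Cebpb and Cebpd. Bar width is peak width and colour gives the test under 0.05. The densest peaks lie at and just downstream of the Cebpb start (1342 and 1388 reads per kb), and the peak over the Cebpd start has 348.

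Oscillation was tested over the 8 time points by JTK with periods of 21 and 24 h, whose adjusted P corrects for the 15 combinations of period and phase tried for each peak but not for the number of peaks, and by a 24-h cosine in edgeR's quasi-likelihood model, whose adjusted p is corrected over all 66066 peaks. JTK called 11 of the 27 members (adjusted P under 0.05), where it called 11.6% of all peaks. Of these members, 6 had a best period of 24 h and 5 of 21 h, the Cebpa start-site peak among the latter. The edgeR cosine called 11 members, where it called 13.4% of all peaks. Both tests called the same 8 members, against 6.71% of all peaks, and 14 members were called by one or both. By gene, JTK called 3 of 9 peaks at Cebpa, 7 of 15 at Cebpb and 1 of 3 at Cebpd, and edgeR called 4, 6 and 1.

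Strong peaks were called more often in these data. Among the strongest 10% of peaks by mean count JTK called 22.0% and edgeR 29.2%. That class held 10 of the members, of which JTK called 7 and edgeR 8, and among the other 17 members JTK called 4 and edgeR 3. With the JTK P of each peak corrected over all peaks by the Benjamini-Hochberg method, the smallest value of a member was 0.128, and 0 of the 66066 peaks passed 0.05. With 8 libraries the JTK adjusted P takes only set steps, the lowest being 0.000744, 0.00595, 0.026, 0.0826 and 0.212. A move from 0.026 to 0.0826 is thus a single step.

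The called peaks at Cebpa and Cebpb were mostly high in the light phase. All 10 JTK calls at these genes had a JTK phase between 3 and 9 h, taken at the best period of each peak (21 or 24 h). Over all peaks 42.9% of the JTK calls had such a phase, and among the strongest 10% of peaks 79.7% of the calls did. Of all peaks tested, 4.99% were called with such a phase, and of the strongest 10%, 17.5%. The 8 members called by both tests were all highest at ZT3 or ZT6 and lowest at ZT15 or ZT18, by 1.33 to 1.70 times. The summed normalized count of the Cebpa window was 1.19 times its mean at ZT3 and 0.828 times at ZT18. The Cebpb window was 1.18 times its mean at both ZT3 and ZT6 and 0.811 times at ZT18. The Cebpd window was lowest at ZT6 (0.884 times its mean) and highest at ZT12 (1.09 times). At ZT12 its weak peak 2.63 kb downstream of the start held 203 of the 1484 counts, against 122 of 1449 at ZT15.

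The share of all reads that fell in the strongest 10% of peaks moved in the same direction, from 47.1% at ZT3 and 48.0% at ZT6 to 44.2% at ZT15 and 44.3% at ZT18. Its part in the results at Cebpa and Cebpb was not tested. A cyclic loess normalization, which takes out differences between libraries that depend on peak strength, left 7 members called by JTK and 5 by edgeR, where it called 11.0% and 11.1% of all peaks.

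At Cebpb, the 6 peaks called by both tests, at the start and downstream of it, were highest in the light phase and lowest at night. The strongest peak (chr2:167690446-167697346, 6901 bp, centred 4.98 kb downstream of the start over the long non-coding RNA gene A530013C23Rik) ranked 30 among all peaks by mean count. Its normalized counts were 9489, 11384, 12017 and 10667 from ZT0 to ZT9 and 9862, 7520, 7372 and 8323 from ZT12 to ZT21. Counts thus rose to ZT6, fell to ZT18 and began to rise again at ZT21, in a single smooth wave. JTK gave an adjusted P of 0.00595 and edgeR an adjusted p of 0.00035. A separate least-squares cosine on log2 normalized counts had an amplitude of 0.35 ± 0.03 (SE, 8 libraries) and a fitted maximum at 5.68 h. Both tests passed 0.05 with each of the 4 normalizations and with each library left out, with edgeR p of 0.011 under loess. Under loess the span from the lowest to the highest library fell from 1.63 to 1.23 times, and the highest library was ZT3 in place of ZT6. This peak holds the first DR1 element printed above.

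The peak over the Cebpb start site (chr2:167685156-167690182, 5027 bp) had normalized counts of 6686, 7800, 7969, 7530, 6956, 5614, 5106 and 6313 from ZT0 to ZT21. It followed the downstream peak closely, with the libraries in the same order (Spearman rho 1 and Pearson r 0.979 over 8 libraries, which share depth and normalization). JTK gave 0.00595 and edgeR 0.00218, and the log2 amplitude was 0.29 ± 0.04 (SE). Under loess neither test passed 0.05 (0.0826 and 0.0756), and the span from the lowest to the highest library fell from 1.56 to 1.26 times.

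Further downstream of Cebpb, the peak at 12.5 kb (chr2:167699650-167703165) held the DR1 element with 1 mismatch on the - strand. Its counts were 4097, 4282, 4560, 4047, 3357, 2704, 2968 and 3580 from ZT0 to ZT21. It was high through the first 9 h of light and lowest at ZT15, 3 h before the minimum of the start-site peak. The log2 amplitude was 0.34 ± 0.04 (SE), with a JTK P of 0.00595 and an edgeR adjusted p of 0.00118, and under loess edgeR kept the call (0.0059) and JTK did not (0.0826). The small peak at 9.22 kb (chr2:167697556-167698707) ran from 756 at ZT15 to 1003 at ZT6, with values of 829, 1001, 954, 896, 763 and 830 at ZT0, 3, 9, 12, 18 and 21. It passed JTK (0.026) and edgeR (0.0397), and with library totals in place of TMM factors it passed neither (0.0826 and 0.104). JTK lost it without ZT6 (0.161), and edgeR kept it in 1 of the 8 fits with a library left out.

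The distal peaks of the Cebpb window reached their maximum at ZT3. At 25.3 kb (chr2:167712817-167715559) the counts were 1670, 2318, 1993, 1601, 1555, 1366, 1542 and 1949 from ZT0 to ZT21. The ZT3 library stood highest and the fall was complete by ZT15, with a JTK P of 0.00595 and an edgeR adjusted p of 0.0226. At 56.5 kb (chr2:167743873-167746887) the counts were 1579, 1716, 1544, 1536, 1376, 1171, 1277 and 1376, with 0.00595 and 0.0168. Fitted maxima were at 2.67 ± 1.11 h and 3.90 ± 0.54 h (SE), against 5.67 ± 0.51 h for the start-site peak, and the difference in phase was not tested. The edgeR call of the 25.3 kb peak was kept in 4 of the 8 fits with a library left out and that of the 56.5 kb peak in 6, with the highest p without ZT15 for both (0.115 and 0.0963).

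The peak at 53.8 kb (chr2:167741954-167743541) was called by JTK alone (0.026, edgeR 0.162), with counts of 489, 635, 478, 473, 429, 461, 437 and 568. ZT3 and ZT21 were the highest libraries, with library totals the JTK P was 0.467, and the call was kept in 3 of the 8 tests with a library left out (0.161 without ZT0, ZT3, ZT6, ZT12 or ZT21). Of the 8 members of the window called by neither test, the strongest was at 34.2 kb with a mean of 3157 (JTK 0.467, edgeR 0.0666). It ran from 2692 at ZT18 to 3765 at ZT3, thus with the same high and low times as the called peaks. The other 7 had means from 102 to 1164, the latter over the start of Tmem189, the gene of an enzyme of plasmalogen synthesis, 28.1 kb upstream of the Cebpb start.

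**Figure D2:**
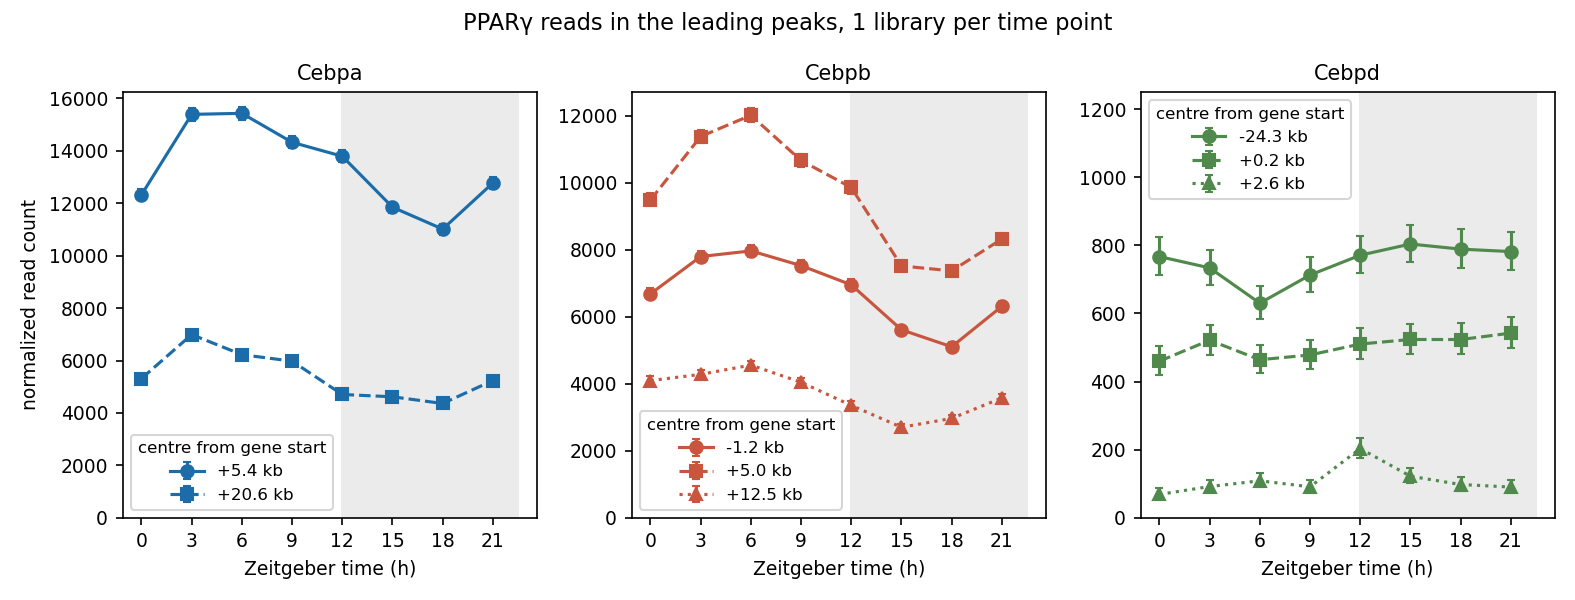
Normalized read counts (vertical axis) by Zeitgeber time (horizontal axis, h, darkness shaded) of leading peaks at Cebpa, Cebpb and Cebpd, with 1 library per point 95% Wilson intervals for counting error. The Cebpa and Cebpb peaks stand highest at ZT3 or ZT6, while the Cebpd peak at -24.3 kb is lowest at ZT6 (630) and the one at 2.6 kb is highest at ZT12 (203).

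At Cebpa the binding was concentrated in 3 wide peaks. The first (chr7:35117347-35132058, 14712 bp) covered the start site and all of the gene and ranked 7 among all peaks by mean count. Its normalized counts were 12325, 15392, 15431 and 14326 from ZT0 to ZT9 and 13794, 11851, 11014 and 12775 from ZT12 to ZT21. The 4 libraries from ZT3 to ZT12 were the highest and ZT18 the lowest, a span of 1.40 times. JTK gave 0.00595 and edgeR 0.00755. The log2 amplitude was 0.22 ± 0.04 (SE), with a fitted maximum at 6.06 h. The call was lost under loess in both tests (1 and 0.942), where the span was 1.11 times, and edgeR lost it without ZT18 (0.075).

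The second wide peak, 20.6 kb downstream (chr7:35136632-35143076, 6445 bp), had counts of 5315, 6991, 6225, 5977, 4706, 4618, 4362 and 5239 from ZT0 to ZT21. ZT3 was the highest library and the largest fall came between ZT9 and ZT12, 3 h earlier than in the start-site peak. The log2 amplitude was 0.29 ± 0.05 (SE), with JTK 0.026 and edgeR 0.00331, and under loess neither passed (0.915 and 0.0655), although the span was still 1.45 times against 1.60 times. JTK also lost this call with library totals (0.0826). The third, 27.2 kb downstream (chr7:35143269-35149669), holds 5 DR1 matches, one of them with 1 mismatch. Its counts were 3508, 4656, 4193, 4376, 3554, 3682, 3292 and 3520, with edgeR 0.031 and JTK 0.212. With library totals edgeR gave 0.0991, under loess 0.565 and without ZT18 0.152, and the call was kept in 4 of the 8 fits with a library left out.

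Some smaller peaks between Cebpa and Slc7a10, the gene of a neutral amino acid transporter of adipocytes, were highest at later hours. The peak at 42.4 kb (chr7:35160920-35162411) carries the second DR1 element printed above. Its counts were 264, 447, 318 and 491 from ZT0 to ZT9 and 504, 521, 313 and 260 from ZT12 to ZT21. Binding was highest around dusk and lowest around dawn, apart from the ZT3 library, which was also high. edgeR gave an adjusted p of 0.0365 and JTK gave 0.212. The log2 amplitude was 0.45 ± 0.15 (SE), with a fitted maximum at 10.9 ± 1.27 h. The edgeR call kept its side of 0.05 under all 4 normalizations (0.0479 with library totals), and in 2 of the 8 fits with a library left out.

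The peak at 38.2 kb (chr7:35156902-35157995) had counts of 182, 221, 255, 289, 250, 213, 170 and 234, highest at ZT9. It was called by JTK (0.026) and not by edgeR (0.134), with JTK at 0.212 with library totals and at 0.161 in each of the 5 tests that left out ZT0, ZT6, ZT9, ZT12 or ZT18. The remaining 4 peaks of the window had means from 88.4 to 488 and were called by neither test. Among them was the peak with the third DR1 element (chr7:35167622-35168495), which ran from 122 at ZT0 to 209 at ZT3 (JTK 0.915, edgeR 0.0948). Just past it and outside the window lay a peak of mean 10211 toward Slc7a10 (JTK 0.0826, edgeR 0.00138), which was lowest at ZT15 (7421) and highest at ZT3 (13235).

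The leading peaks of Cebpa and Cebpb had similar time courses. The start-site peaks of Cebpa and Cebpb had Pearson r 0.963 over the 8 libraries, which share depth and normalization. Between the 9 Cebpa and 15 Cebpb peaks the median r over 135 pairs was 0.21, so the likeness did not extend to all members.

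Cebpd had few reads, and none of its peaks was called by both tests. The peak over its start site (chr16:15886744-15888188) had normalized counts of 460, 521, 464, 478, 510, 524, 523 and 542 from ZT0 to ZT21. The span was 1.18 times, the smallest of the 27 members, and neither test called it (JTK 1, edgeR 0.627). The edgeR common dispersion corresponds to a coefficient of variation of 10.8% around the fitted cosine over all peaks.

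The Cebpd peak 24.3 kb upstream (chr16:15862383-15863663) lies over the start of Mzt2 (the gene of a mitotic spindle protein). Its counts were 767, 734, 630, 713, 771, 804, 789 and 782, with the single low library at ZT6. JTK called it (0.026) with a phase of 18 h, 12 h from that of the Cebpb start-site peak, and edgeR did not (0.247). The JTK P was 0.026 under all 4 normalizations. It was 0.161 without ZT6 or ZT12. Across the 8 libraries, which share depth and normalization, this peak ran against the strongest Cebpb peak (r -0.83). That was the lowest r of the 45 pairs of Cebpb and Cebpd peaks, whose median was -0.13, with 17 pairs positive.

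The peak 2.63 kb downstream of the Cebpd start (chr16:15889546-15890284), within the neighbouring gene Spidr, had counts of 68.8, 91.8, 109, 91.1, 203, 122, 97.8 and 90.4. The ZT12 library alone stood out, at 203 (95% Wilson interval 177 to 234) against 122 (103 to 145) at ZT15. The edgeR adjusted p was 0.0494 and JTK gave 0.212. The edgeR call was kept in 2 of the 8 fits with a library left out, with the highest adjusted p without ZT12 (0.352), and the p was 0.0508 with DESeq2 size factors and 0.065 under loess. No second pool was taken at ZT12 against which to check it.

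**Figure D3:**
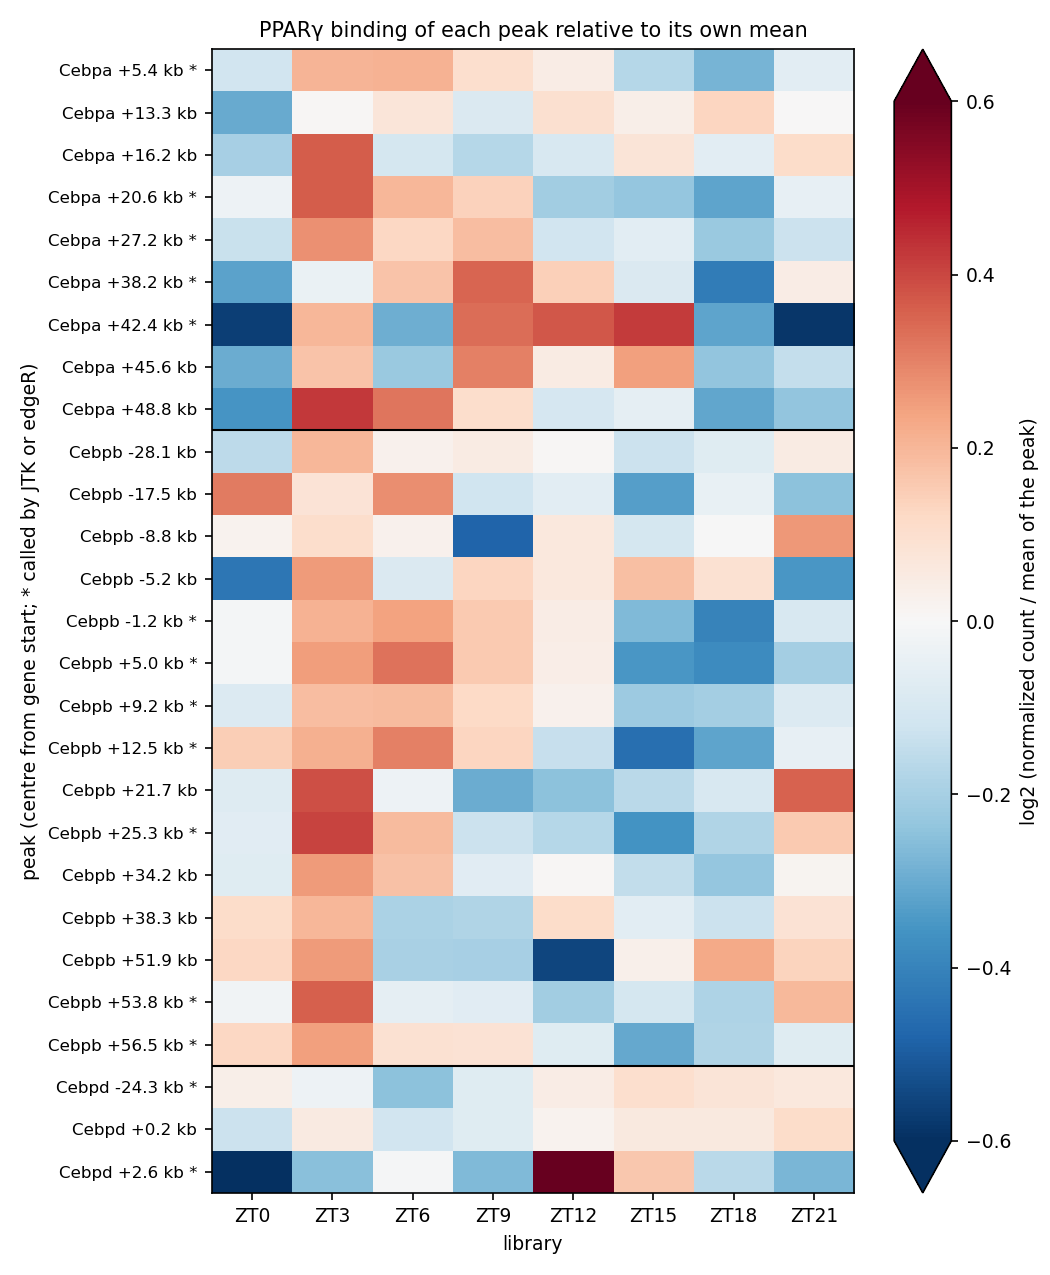
Normalized count of each of the 27 peaks (rows, named by distance of the centre from the gene start) in the 8 libraries (columns), as log2 of the ratio to the mean of the peak. An asterisk marks the 14 peaks called by JTK or edgeR. Leading Cebpa and Cebpb peaks are red at ZT3 and ZT6 and blue at ZT15 and ZT18, and the Cebpa peak at 42.4 kb is red from ZT9 to ZT15.

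Over all 27 members the highest library was ZT3 for 13 and ZT6 for 5, and the lowest was ZT0 for 8, ZT18 for 7 and ZT15 for 5. The 13 members called by neither test had a median span of 1.52 times between their lowest and highest library, and the median span over all peaks was also 1.52 times. The median log2 amplitude of all members was 0.22, against 0.17 over all peaks and 0.14 over the strongest 10%. Raw counts of members lay between 67 and 16091 reads per library.

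**Figure D4:**
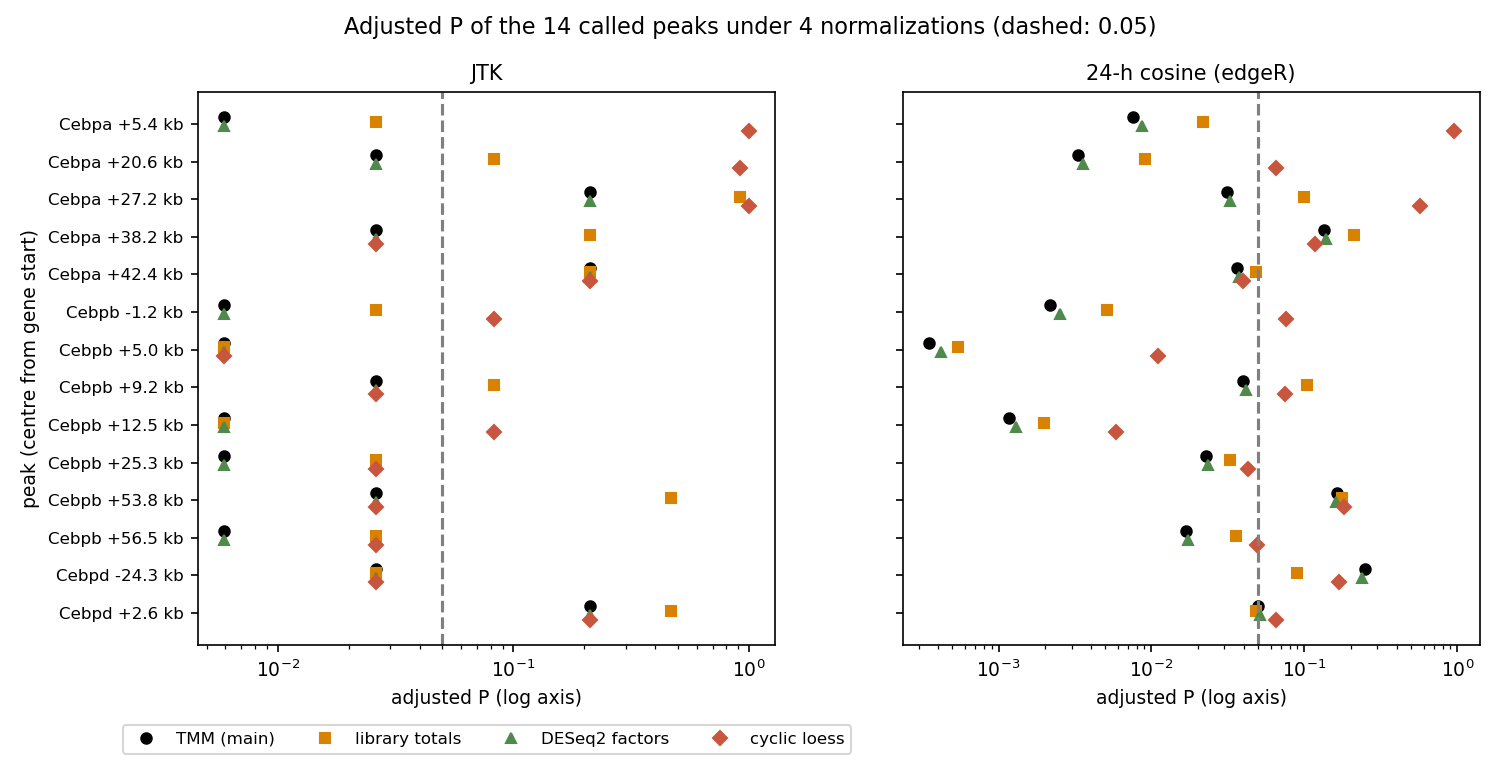
Adjusted P (horizontal log axis) of the 14 called peaks (vertical axis) by JTK and by the edgeR 24-h cosine under TMM, library totals, DESeq2 size factors and cyclic loess, with 0.05 dashed. The Cebpb peak at 5.0 kb stays left of the line under all 4 in both tests, and the Cebpa peak at 5.4 kb moves to 1 and 0.942 under loess.

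The other regulators of adipogenesis formed a list of 21 genes, of which 19 had a peak whose nearest start site within 100 kb was theirs and which held 171 peaks. JTK called 32 of these (18.7%) and edgeR 32 (18.7%), against the 11.6% and 13.4% of all peaks. For the 3 other C/EBP family genes the counts were 4 and 6 of 17 peaks, for positive regulators 21 and 22 of 115, and for negative regulators 7 and 4 of 39. No peak was assigned to Klf5 or Wnt10b.

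Within the C/EBP family, the strongest peak of Cebpg, a dimerization partner of the other members and the neighbour of Cebpa, had a mean normalized count of 9823 and ran from 8307 at ZT18 to 11044 at ZT9 (JTK 0.0826, edgeR 0.0089). That of Ddit3, the stress-induced inhibitory member, ran from 3883 at ZT15 to 5120 at ZT6 (0.026 and 0.0119). That of Cebpe, known from granulocytes, ran from 571 at ZT0 to 1003 at ZT6 (0.212 and 0.0171). These 3 peaks were lowest at night or at dawn and highest in the light phase. The 1 Cebpe peak within 10 kb of its start, which was weaker, was called by both tests (0.026 and 0.00382) and ran from 112 at ZT0 to 275 at ZT15.

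Of the positive regulators, the strongest peak of Klf15, a glucocorticoid-responsive Krüppel-like factor, ran from 2781 at ZT18 to 4387 at ZT6 and was called by both tests (0.026 and 0.00751). The strongest Srebf1 peak, at the gene of a lipogenic transcription factor, ran from 5878 at ZT18 to 7908 at ZT6 (JTK 0.212, edgeR 0.0354). The strongest Ebf1 peak was called by JTK alone (0.00595, edgeR 0.134) and that of Stat5a by edgeR alone (0.0454, JTK 0.0826). The strongest Klf4 peak was called by JTK alone (0.026, edgeR 0.241), with its maximum of 756 at ZT21.

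The strongest peaks of Nr3c1 (the glucocorticoid receptor), Stat5b and Zfp423, and, among the negative regulators, those of Klf2, Klf3 and Foxo1, were called by neither test. Their JTK P ran from 0.0826 to 1 and their edgeR p from 0.0669 to 0.899, although each of these genes had at least 1 weaker peak called. The Zfp423 peak, of mean 4699, spanned 1.13 times, and the Foxo1 peak, of mean 3143, spanned 1.17 times.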

How the data were processed

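Male C57BL/6J iBAT was pooled per time point, and PPARγ-bound DNA was sequenced. Per the study's methods and the submitters' processing notes, reads were mapped to mm10 with BWA 0.7.17, peaks called with MACS2 2.1.2 and reads counted with HTSeq 1.99.2, with peaks kept when significant in at least 6 libraries. The authors deposited raw read counts per peak, and 8 columns were used. The handling of duplicate reads is not given in the sources used here, and input DNA was not analysed here.

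Each count was divided by its library total times a TMM factor (edgeR 4.0.16) and scaled to the mean total. JTK was rewritten in Python 3.11.15, with its order of ties set by comparison with the form of the study's own output, as the study's package was not installed. With TMM factors it called 7686 of the 66066 peaks, fewer than the study reports, and with library totals 8123. The cause of this difference from the study was not tested. The cosine was fitted to counts by edgeR's quasi-likelihood test, with Benjamini-Hochberg adjustment and 5 residual degrees of freedom. Log2 amplitudes, fitted maxima and their SEs came from a separate 24-h cosine, fitted by least squares to log2 normalized counts. No low-count filter was used. On simulated counts with a cosine amplitude of 0.5 times the mean, larger than that fitted for any member, JTK recovered 84.5% and edgeR 100% of 200 changed peaks of 5000, with 94 and 14 false calls. Recovery at the members' amplitudes was not simulated. Loess came from limma 3.58.1, and DESeq2 1.42.0 was an alternative. Start sites were curated RefSeq ones (GRCm38), and peak positions are as deposited. Wilson intervals and depth cover counting error only.

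All peaks in the windows are members. Those given at every time are, per gene, the strongest, the one at the start site and each called by either test. Of other regulators the strongest peak is named for genes with a called peak. Members, gene lists and tests were chosen with earlier results of these data known.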

Additional observations from a re-analysis of the deposited data

How the results depend on the processing

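Of the 27 members, JTK called 11 with TMM, 11 with DESeq2 size factors, 7 with library totals (12.3% of all peaks, against 11.6% with TMM), 7 with cyclic loess (11.0%), 9 with a period of 24 h only, 11 with a mean count of at least 100, and 6 at a threshold of 0.01. The edgeR cosine called 11 with TMM, 10 with DESeq2 size factors, 9 with library totals (13.5% of all peaks, against 13.4%), 5 with loess (11.1%), 10 with a mean count of at least 100 and 5 at 0.01, and a DESeq2 likelihood ratio test called 11 (15.4% of 64785 peaks). Taking as members only the 10 peaks whose nearest start site was that of the gene left 3 and 5 calls. Leaving out each library in turn gave 7 (without ZT6) to 12 JTK calls, and 4 (without ZT18) to 10 edgeR calls, with 6 without ZT15 and 7 without ZT6. Under all 4 normalizations at once, 4 members were called by JTK and 5 by edgeR, and 7 and 4 members were called in every one of the 8 tests with a library left out. Where no share of all peaks is given it was not computed, so those counts cannot be set against a change in all peaks. For the 171 peaks of other regulators, library totals gave 24 JTK and 34 edgeR calls in place of 32 and 32, and a limit of 10 kb to the start site gave 12 and 13 of 52 peaks. That limit tests fewer peaks. For the other changes the cause was not tested. With 1 library per time point, an error of a single pool cannot be told apart from a change with time. No paired analysis was possible because each time point had 1 library and no replicate numbers.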

Other observations

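The genes whose summed PPARγ binding was most like that of each C/EBP gene were sought among 10293 genes with a mean sum of at least 500 normalized counts, as Pearson r of log2 sums over the 8 libraries. These sums took the peaks whose nearest start site within 100 kb was that of the gene, 5 for Cebpa, 3 for Cebpb and 2 for Cebpd, so they leave out other members, among them the strongest Cebpb peak, which lies nearest to A530013C23Rik. The libraries share depth and normalization, so these are descriptions. For Cebpa they were 1700001K19Rik (r 0.991), Elane (0.989), the gene of neutrophil elastase, and Mapkapk2 (0.988), a stress-activated kinase. For Cebpb they were Zfp512 (0.990), Plin4 (0.988), a lipid droplet coat protein, and Mir193a (0.984). For Cebpd they were Arl5a (0.971), Gm12764 (0.970) and Bet1 (0.962). Plin4 and the Mir193a locus carried summed means of 10583 and 13456 normalized counts, which puts them with the strongly bound genes, whereas the sums of the 3 genes most like Cebpd lay between 736 and 1008.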
